A study of Mus musculus with 36 samples.

Results

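RNA from mouse embryonic ventricles at E15.5 was compared after loss and after gain of the Notch ligand Dll4, to find genes that moved in opposite directions with less and with more Dll4. This comparison used 14 of the 36 libraries of the series. In the loss experiment, 3 Dll4flox;Cdh5-CreERT2 libraries (KO2, KO3 and KO4) were set against 4 WT libraries (WT1 to WT4). Cdh5-CreERT2 is a tamoxifen-dependent Cre of vascular endothelial cells, and tamoxifen was given to the pregnant females at E12.5. In the gain experiment, 3 Dll4GOF;Tie2-Cre libraries (TG2, TG3 and TG4) were set against 4 WT libraries of their own. Dll4GOF is an extra Myc-tagged Dll4 transgene in the Rosa26 locus, made from a selected embryonic stem cell clone and opened by Cre. Tie2-Cre acts in endothelial cells and also in blood cells. Each library was made from a pool of 3 embryos, and whole ventricles were used, so most RNA came from cells outside the endothelium. Nothing given with the libraries ties those of the same number to a litter or a day. P values therefore measure the spread between pools.

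Dll4 is a membrane ligand that binds Notch receptors on neighbouring cells, which releases the receptor's intracellular domain to act in the nucleus with the DNA-binding protein RBPJ. In growing vessels, endothelial tip cells present Dll4 and restrain sprouting of their neighbours. Dll4 and Notch signalling are also known for arterial identity. Hey and Hes genes and Nrarp are textbook targets of the pathway.

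Values are normalised counts, that is CPM of a library size that the authors had adjusted within each table. The 2 tables were normalised separately and shared no library. An effect is the mutant minus WT difference on the log2(value + 0.5) scale within its own table. The difference of effects is the loss effect minus the gain effect. Genes with a Benjamini-Hochberg adjusted p under 0.05 in the limma fit were called. A gene was termed opposed when the difference of effects was called, the 2 effects had opposite signs, and each effect had an unadjusted p under 0.05 in its own table. The loss table held 13897 genes, 13737 were in the gain table, and 13562 were in both.

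Total counts ranged from 8262124 to 14774561 in the loss experiment and from 14392366 to 19876031 in the gain experiment. Mitochondrially encoded genes took 6.56% to 7.40% of the signal in loss WT, 5.59% to 6.55% in KO, 5.04% to 5.65% in gain WT and 4.60% to 5.04% in TG. Pools also differed in sex. The mean level of Y-linked genes was under 1 normalised count in loss WT4, gain WT2, TG2 and TG3, and was 1.46 in KO2. Gain WT3 and WT4 had 41.7 and 42.9, and their Xist levels were 0.146 and 0.346. With the Y-linked level as a covariate, added after seeing the data, the gain effect was called for 0 genes. It was called for 0 genes without the covariate too, so this count cannot show whether sex mattered. The same covariate moved the genes called with loss from 160 to 64 and the opposed genes from 16 to 30. The difference of Dll4 then lost its call (limma adjusted p = 0.0564). Cardiomyocyte markers summed to between 57306 and 70223 normalised counts in all 14 libraries.

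Dll4 itself (chromosome 2, 119325784 to 119335962 on GRCm38) was measured at 27.98, 23.2, 25.04 and 28.6 normalised counts in loss WT1 to WT4, and at 8.11, 20.7 and 9.53 in KO2, KO3 and KO4. All KO libraries lay below all WT libraries, but KO3 kept 79.1% of the WT mean, against 30.9% in KO2 and 36.3% in KO4. In the gain experiment it was 33.2, 32.3, 31.7 and 35.2 in WT1 to WT4, and 40.0, 38.5 and 42.7 in TG2, TG3 and TG4. All TG libraries lay above all WT libraries, by 16.3% to 29.1% of the WT mean. The loss effect was -1.12 ± 0.24 (SE; limma adjusted p = 0.0507) and the gain effect 0.28 ± 0.06 (adjusted p = 0.354). Their difference was called, at -1.41 ± 0.28 (adjusted p = 0.0439, 95% interval -2.0 to -0.81), and its call was lost on leaving out any library other than KO3 (adjusted p from 0.0658 to 0.131). The gain effect was 0.25 times the size of the loss effect. This gene's opposed direction is fixed by the design and only checks the labels.

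A second check of the gain label was Gt(ROSA)26Sor, the non-coding transcript of the locus that carries the transgene. It was at 6.94, 7.66, 6.63 and 8.03 normalised counts in gain WT1 to WT4 and at 4.34, 4.55 and 3.51 in TG2, TG3 and TG4. The TG libraries lay below all WT libraries, with an effect of -0.76 ± 0.13 (unadjusted p = 7.94e-05, adjusted p = 0.211). In the loss experiment its effect was -0.01 ± 0.12.

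Across all genes the loss effect was called for 131 genes higher (0.943% of the loss table) and 29 lower (0.209%). The gain effect was called for 0 of 13737 genes (0%), with 1280 at an unadjusted p under 0.05 and a smallest adjusted p of 0.211. The difference of effects was called for 44 genes, 34 higher with loss than with gain (0.251% of the joined genes) and 10 lower (0.0737%), with 1612 at an unadjusted p under 0.05. Leaving out a library moved the loss count to between 6 (without KO2) and 574 (without KO3) and the gain count to at most 29 (without TG3). Of the 44 genes, 39 were also called in the loss experiment, 40 had effects of opposite signs, and 0 had a larger effect with gain than with loss. Over all joined genes 47.6% had opposite signs. A called difference favours effects of opposite signs, so the count of 40 is largely built in and is a description.

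**Figure D1:**
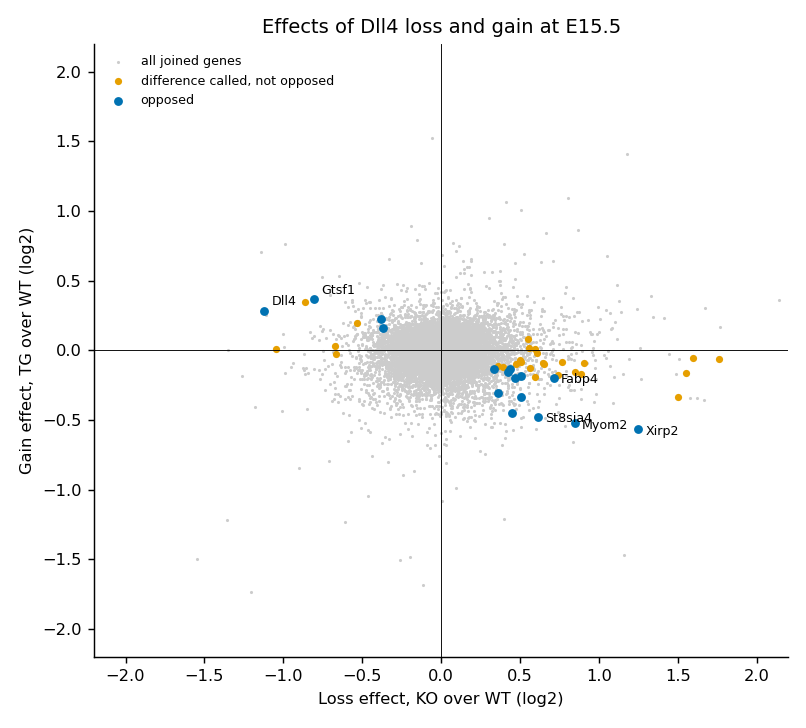
Loss effect (x axis, log2) against gain effect (y axis, log2) for each joined gene. Grey points are all genes, orange points the called genes that were not opposed, and blue points the 16 opposed genes, of which the most changed are named. The opposed genes lie to the lower right and upper left, nearer to the x axis than to the y axis. 15 genes lie outside the axis range of ± 2.2.

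Opposed genes numbered 16. Of these, 12 were higher with loss and lower with gain (0.0885% of the joined genes) and 4 were lower with loss and higher with gain (0.0295%). The first direction held Xirp2, Myom2, St8sia4, Fabp4, Aplnr, Syt7, Sparcl1, Gimap4, Acsl1, Plekha6, Pcdh12 and Cd34. The second held Dll4, Gtsf1, Cdkn1c and Ntm. The gain effect was between 0.25 and 0.99 times the size of the loss effect, with a median of 0.44. No gene was called in both tables, in either relation of signs, and after adjustment the larger of the 2 unadjusted p values was 1 for every gene. All 16 are protein-coding. KO and WT libraries did not overlap in any of the 16, and TG and WT libraries did not overlap in 13. The exceptions were Myom2, Gimap4 and Gtsf1. Groups that lie apart are largely built in, since the rule chose these genes by p from the same libraries. Over all joined genes, 73 had groups apart in both tables with opposite directions (0.538%), and 78 had them apart with the same direction.

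Several opposed genes are known from endothelium. Fabp4 (chromosome 3, 10204088 to 10208576), the fatty acid-binding protein of capillary endothelium, was at 187, 204, 161 and 171 normalised counts in loss WT1 to WT4 and at 345, 286 and 261 in KO2, KO3 and KO4. In the gain experiment it was at 139.9, 149.8, 138 and 133 in WT1 to WT4 and at 127, 118 and 122 in TG2, TG3 and TG4. Groups did not overlap in either table. The loss effect was 0.71 ± 0.10 (adjusted p = 0.0162) and the gain effect -0.20 ± 0.05 (unadjusted p = 0.00181, adjusted p = 0.354). Fabp4 had the smallest p of all opposed genes, with a difference of 0.91 ± 0.12 (adjusted p = 0.00718), and was the only opposed gene still called with each library left out in turn.

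Aplnr (chromosome 2, 85136225 to 85139923), the receptor for apelin on venous and sprouting endothelium, had effects of nearly equal size. It was at 52.0, 58.1, 58.9 and 61.3 normalised counts in loss WT1 to WT4 and at 86.2, 78.6 and 71.8 in KO2, KO3 and KO4. In gain WT1 to WT4 it was at 57.3, 55.4, 62.7 and 53.5, and in TG2, TG3 and TG4 at 48.9, 44.8 and 33.4. Each mutant library lay outside the range of its own WT, and TG4 was the lowest of all 14. The loss effect was 0.45 ± 0.08 and the gain effect -0.45 ± 0.11, with a difference of 0.90 ± 0.15 (adjusted p = 0.0225, 95% interval 0.58 to 1.21).

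Cd34 (chromosome 1, 194938819 to 194961279), a sialomucin on the surface of endothelial and blood-forming cells, had smaller effects. It was at 166.8, 161.6, 155.7 and 164 in loss WT1 to WT4 and at 209, 196 and 209 in KO2, KO3 and KO4. Its gain values were 178, 174, 183 and 174 in WT1 to WT4 and 163, 169 and 152 in TG2, TG3 and TG4. The difference of 0.47 ± 0.07 was called (adjusted p = 0.0149), and the groups did not overlap in either table. Pcdh12, a protocadherin of vascular endothelium, was at 22.2 to 24.1 in loss WT, 26.7 to 33.9 in KO, 28.1 to 30.4 in gain WT and 26.3 to 27.1 in TG. Its difference was 0.57 ± 0.11 (adjusted p = 0.0356). Sparcl1, a secreted matricellular protein, was at 246 to 306 in loss WT, 347 to 424 in KO, 245 to 272 in gain WT and 214 to 242 in TG. Its difference was 0.69 ± 0.11 (adjusted p = 0.0225). Gimap4, a GTPase of lymphocytes and endothelium, had a difference of 0.67 ± 0.12 (adjusted p = 0.0332), and its TG values of 22.1 to 26.3 overlapped WT values of 24.9 to 29.8.

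Of the remaining genes of this direction, Xirp2 and Myom2 are genes of striated muscle. Xirp2 (chromosome 2, 67446002 to 67526614) encodes an actin-binding protein of the intercalated disc. It was at 4.03, 6.66, 5.33 and 6.003 in loss WT1 to WT4 and at 18.8, 9.28 and 14.2 in KO2, KO3 and KO4, with a loss effect of 1.25 ± 0.22 (adjusted p = 0.024). In the gain experiment it was at 5.06, 6.61, 5.11 and 5.51 in WT1 to WT4 and at 4.05, 4.87 and 2.27 in TG2, TG3 and TG4. The groups did not overlap in either table, though TG3 lay just under the lowest WT value. The difference of 1.82 ± 0.33 (adjusted p = 0.0332) was the largest of the opposed genes.

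Myom2 (chromosome 8, 15057653 to 15133541) encodes myomesin-2 of the sarcomeric M-band. It was at 100.7, 104.5, 80.9 and 102.5 in loss WT1 to WT4 and at 213, 133 and 186 in KO2, KO3 and KO4. In gain WT1 to WT4 it was at 85.3, 114, 94.8 and 75.6, and in TG2, TG3 and TG4 at 78.0, 55.3 and 59.1. TG2 lay within the WT range. The difference was 1.37 ± 0.22 (adjusted p = 0.0225). The 27 tested cardiomyocyte markers had medians of -0.06 with loss and 0.03 with gain. The difference was called for 0 of them (44 of 13562 over all joined genes) and had an unadjusted p under 0.05 for 10 (1612 of 13562).

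St8sia4 (chromosome 1, 95587682 to 95667571), a polysialyltransferase that adds polysialic acid to neural cell adhesion molecule, was at 7.88, 8.87, 9.43 and 11.2 in loss WT1 to WT4 and at 14.5, 13.3 and 15.6 in KO2, KO3 and KO4. In gain WT1 to WT4 it was at 8.49, 10.1, 9.37 and 8.91, and in TG2, TG3 and TG4 at 6.38, 8.44 and 5.01. The groups were apart in both tables, and the difference was 1.09 ± 0.21 (adjusted p = 0.0356). St8sia2, the other polysialyltransferase, was picked out after its values were seen, since it had the inverse signs. It was at 3.42 to 5.10 in loss WT and 1.80 to 2.31 in KO, with a loss effect of -0.86 ± 0.18 (adjusted p = 0.0481). Its gain effect of 0.35 ± 0.17 had an unadjusted p of 0.059, so it was not opposed, while its difference of -1.21 ± 0.24 was called (adjusted p = 0.0439).

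Acsl1, which activates long-chain fatty acids, was at 170 to 207 in loss WT, 218 to 260 in KO, 162 to 201 in gain WT and 133 to 158 in TG. Its difference was 0.67 ± 0.13 (adjusted p = 0.0356), and its effects of 0.36 and -0.31 were close in size. Syt7, a calcium sensor of exocytosis, had a difference of 0.84 ± 0.16 (adjusted p = 0.0356) at levels of 6.38 to 13.3. Plekha6, a pleckstrin homology domain protein, had a difference of 0.58 ± 0.10 (adjusted p = 0.0225). Acsl1, Syt7, Pcdh12, Ntm and Dll4 were the opposed genes whose loss effect was not called in its own table (adjusted p from 0.0507 to 0.0882).

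The second direction held genes that were lower with loss and higher with gain. Cdkn1c (chromosome 7, 143458339 to 143461050) encodes p57, an inhibitor of cyclin-dependent kinases. It was at 382, 322, 386 and 326 in loss WT1 to WT4 and at 257, 286 and 269 in KO2, KO3 and KO4. In gain WT1 to WT4 it was at 286, 317, 331 and 339, and in TG2, TG3 and TG4 at 367, 347 and 404. The groups did not overlap in either table. The loss effect was -0.38 ± 0.08 (adjusted p = 0.0475), the gain effect 0.23 ± 0.07 (adjusted p = 0.384) and the difference -0.61 ± 0.11 (adjusted p = 0.0332).

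Gtsf1 (chromosome 15, 103402405 to 103430470), known for its part in the piRNA pathway of germ cells, was measured at low levels. It was at 6.46, 7.72, 6.78 and 5.46 in loss WT1 to WT4 and at 3.74, 4.00 and 2.94 in KO2, KO3 and KO4. In gain WT1 to WT4 it was at 6.83, 4.86, 7.27 and 6.58, and in TG2, TG3 and TG4 at 8.36, 7.22 and 9.49. TG3 lay within the WT range, and the difference was -1.18 ± 0.22 (adjusted p = 0.0332). Ntm (chromosome 9, 28994750 to 29963141), a neuronal cell adhesion molecule, was at 30.8, 29.3, 28.4 and 26.9 in loss WT1 to WT4 and at 20.5, 22.1 and 23.9 in KO2, KO3 and KO4. It was at 24.6, 26.9, 26.1 and 28.1 in gain WT1 to WT4 and at 29.5, 28.4 and 30.7 in TG2, TG3 and TG4. The groups were apart in both tables, with a difference of -0.53 ± 0.10 (adjusted p = 0.0378).

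**Figure D2:**
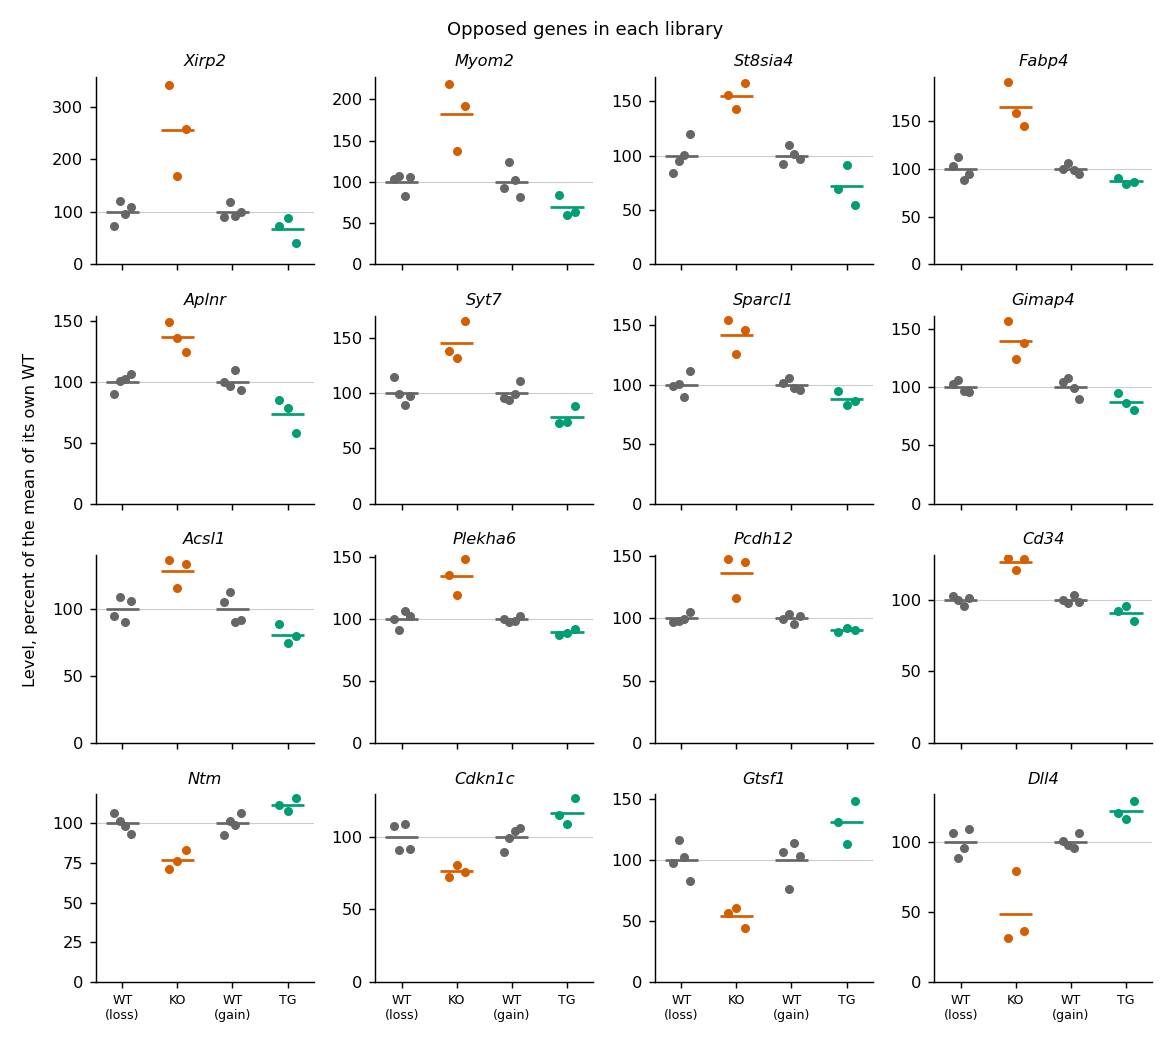
Level of each opposed gene in each of the 14 libraries, as a percent of the mean of its own WT (y axis, from 0). Points are libraries and bars are group means, for loss WT, KO, gain WT and TG from left to right. For Dll4, KO2 and KO4 sit at 30.9% and 36.3% and KO3 at 79.1%, and the TG libraries sit between 116% and 129%.

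The libraries did not contribute alike. KO3, which kept most Dll4, was the KO library nearest to WT in 13 of the 16 opposed genes and in 77.6% of the 152 joined genes called with loss, against 37.1% of all joined genes. The difference of effects can be split into a mutant side and a WT side. For 14 of the 16 opposed genes the mutant side of the difference (KO minus TG) was larger than the WT side (loss WT minus gain WT), with median sizes of 0.79 and 0.12 on the log2 scale. Over all joined genes these sizes were 0.15 and 0.13, and the WT side was the larger for 5944 of 13562. A large mutant side is built in by the rule and is given as a description. The 2 exceptions were Plekha6 (-0.43 on the WT side, 0.15 on the mutant side) and Pcdh12 (-0.35 and 0.22). Since the tables were normalised separately, these levels across tables are a description only.

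The opposed count depended strongly on single libraries. It ranged from 1, without KO2 or without gain WT3, to 126 without KO3, and the count of called differences ranged from 2 to 459 in the same fits. Without any library other than KO3 the called differences numbered 21 or fewer. The opposed genes numbered 11 to 13 without loss WT4, gain WT4, TG2 or TG3, 10 without KO4, 8 without loss WT2, 7 without loss WT1, 6 without loss WT3, 5 without gain WT1 and 2 without gain WT2 or TG4. Without KO3, all 16 opposed genes stayed opposed, with 90 higher and 36 lower with loss. All 16 kept opposite signs of the effects in every fit that left out a library. This is largely built in, since the rule chose these genes by sign and p from the same libraries.

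**Figure D3:**
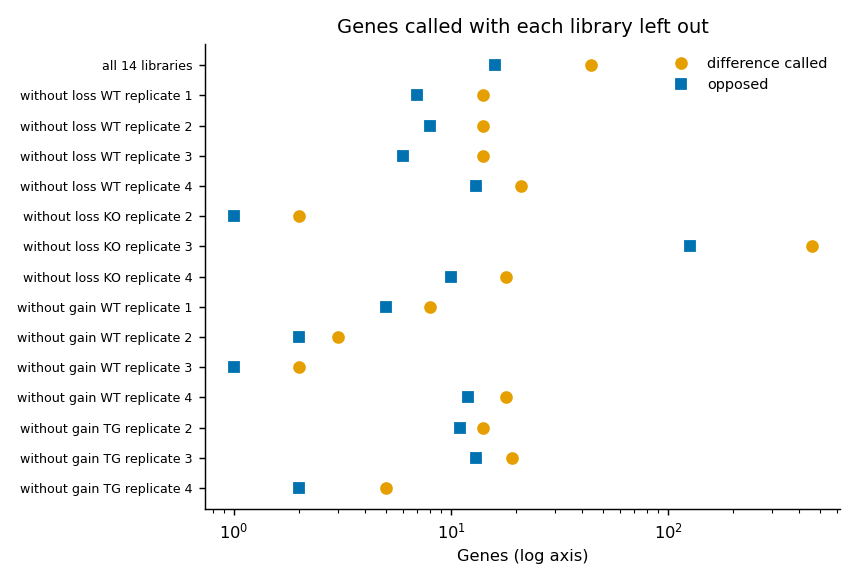
Genes with a called difference of effects (orange circles) and opposed genes (blue squares) with all 14 libraries and with each left out in turn, on a log axis. The counts are 44 and 16 with all libraries, 2 and 1 without loss KO replicate 2, and 459 and 126 without loss KO replicate 3.

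The edge of the rule is given as a description. Pcdh12 was the last gene inside, with an unadjusted p of 0.040 for its gain effect. Just outside was Bmp5, a bone morphogenetic protein, with a loss effect of -0.53 and a gain effect of 0.20 at an unadjusted p of 0.0565. St8sia2 followed, and then Cav1, the coat protein of caveolae, with effects of 0.39 and -0.12 and an unadjusted p of 0.0602 for gain. At the threshold of the difference itself, Vwa1 and Ldb2 were inside at an adjusted p of 0.0461 and Rps4l was outside at 0.0514. The lowest difference of any gene belonged to the pseudogene Rps16-ps2, at -6.30 with a gain effect of 0.05. It was picked out after its values were seen, and its reads cannot be told from those of its parent ribosomal protein gene with certainty.

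The capillary and pan-endothelial lists had positive medians with loss and medians near 0 with gain. Of 23 capillary and tip cell genes, the difference was called higher with loss for 5 (Fabp4, Gpihbp1, Kcne3, Cav1 and Sgk1) and lower for 0. Over all joined genes it was called higher for 34 of 13562 and lower for 10. The medians of the 23 were 0.39 with loss and -0.05 with gain, against 0.00 for both over all joined genes. Gpihbp1, which anchors lipoprotein lipase in capillaries, was at up to 14.3 in loss WT, 16.7 to 27.2 in KO, 13.2 to 15.3 in gain WT and 10.7 to 13.5 in TG. Kcne3, a potassium channel subunit, had the largest loss effect of these at 1.59 ± 0.26, with a gain effect of -0.05 ± 0.13. Plvap, the diaphragm protein of fenestrae and caveolae, had a loss effect of -0.02 and a gain effect of 0.28 ± 0.05 (unadjusted p = 1.0e-04, adjusted p = 0.211), and its difference was not called (adjusted p = 0.099).

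Of 30 pan-endothelial genes, 5 were called higher with loss than with gain (Cd34, Pcdh12, Erg, Egfl7 and Bcl6b) and 0 lower. Over all joined genes 34 of 13562 were called higher. The medians of the 30 were 0.29 and 0.01. Erg, an endothelial transcription factor, and Egfl7, a secreted endothelial protein, had gain effects of -0.07 and 0.01. Summed pan-endothelial markers were at 2123 to 2190 normalised counts in loss WT and at 2362 to 2730 in KO, without overlap. In gain WT they were at 2431 to 2489 and in TG at 2418 to 2505. More endothelial cells and more RNA per endothelial cell cannot be told apart in these bulk libraries.

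Of 13 venous genes, Aplnr and Flt4 were called higher with loss than with gain (34 of 13562 over all joined genes). Flt4, the receptor for VEGF-C, was at 40.8 to 43.2 in loss WT and 53.6 to 77.3 in KO, and at 46.6 to 53.5 in gain WT and 43.8 to 51.9 in TG. Of 26 arterial genes, Dll4 was the only call, with medians of -0.03 and -0.02. Gja5, connexin 40 of arteries, is also the authors' marker of trabecular myocardium, and the part of each cell type was not tested. Gja5 had signs like Dll4. It was at 103, 99.1, 112 and 105 in loss WT1 to WT4 and at 64.4, 78.3 and 102 in KO2, KO3 and KO4, and KO4 lay within the WT range. In gain WT1 to WT4 it was at 138, 131, 131 and 133, and in TG2, TG3 and TG4 at 156, 153 and 175. Its difference of -0.65 missed the threshold (adjusted p = 0.071).

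Genes of the Notch pathway itself were also read. Of 8 tested ligands and receptors, only Dll4 had a called difference (44 of 13562 over all joined genes). Notch4, an endothelial receptor, had effects of 0.42 and -0.11 (difference 0.53, adjusted p = 0.10), and Jag2, another ligand, 0.50 and -0.07 (difference 0.58, adjusted p = 0.15). Jag1 had effects of the same sign, -0.21 and -0.26. Notch1, the main endothelial receptor, had effects of 0.08 and -0.08, Dll1 0.21 and 0.12, Notch2 -0.14 and -0.16, and Notch3 -0.18 and -0.15.

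The difference was called for 0 of 8 Notch targets, with 1 at an unadjusted p under 0.05 (44 and 1612 of 13562 over all joined genes). Hey1 had effects of -0.18 and 0.11, and Hey2 -0.21 and 0.07, which are the signs of Dll4, but neither difference passed (adjusted p = 0.51 and 0.42). The authors use Hey2 as a marker of compact myocardium, and the part of each cell type was not tested. Heyl, Hes1, Hes6, Nrarp, Efnb2 and Dtx3 had loss effects between -0.12 and 0.11 and gain effects between -0.10 and 0.05. Of 22 genes that modify or assist Notch, the difference was called for 0. Lists of this size are too short for 0 calls to set them apart from all joined genes. Mfng, a fringe glycosyltransferase, had effects of 0.54 and 0.05, and was called with loss (adjusted p = 0.026).

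Several other lists are given with their calls in the loss effect and in the difference. Over all joined genes the difference was called for 44 of 13562, so 0 calls in lists of this size do not set them apart. For 33 type I interferon genes, 13 were called higher with loss (127 of 13562 over all joined genes). The medians of the 33 were 0.56 with loss and 0.00 with gain, and only Rsad2 was called in the difference. For 34 HIF targets, 13 were called higher with loss (127 of 13562 over all joined genes), and the medians of 0.42 and 0.14 had the same sign. For 31 genes of the integrated stress response the medians were 0.32 and 0.04. Of these, 8 were called higher with loss (127 of 13562 over all joined genes) and only Shmt2 in the difference. For 32 cell cycle genes the medians were -0.04 and 0.11, and 0 were called in the loss effect or in the difference. Of these 32, 22 had effects of opposite signs (6457 of 13562 over all joined genes). The difference was positive for 4 of the 32 (6798 of 13562), and 9 were higher with gain at an unadjusted p under 0.05 (554 of 13562). For 23 genes of fatty acid oxidation, 15 were higher with loss and lower with gain (3185 of 13562 over all joined genes), with medians of 0.07 and -0.05 and 0 calls.

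Markers of immune cells had medians of opposite sign in the 2 experiments, with overlapping summed levels. For 15 macrophage genes the medians were 0.32 and -0.18, and 13 were higher with loss and lower with gain (3185 of 13562 over all joined genes). Their summed level was 148 to 177 in loss WT, 175 to 224 in KO, 164 to 216 in gain WT and 152 to 178 in TG. For 7 genes of neutrophils and other leukocytes the medians were 0.80 and -0.26, with sums of 43.9 to 58.1, 56.7 to 83.8, 46.1 to 57.2 and 44.3 to 50.4. The difference was called for 0 genes of either list (44 of 13562 over all joined genes). It had an unadjusted p under 0.05 for 10 of the 15 macrophage genes and 5 of the 7 leukocyte genes (1612 of 13562). Gimap4 and Cd34 are also made by blood cells, and the part of these cells in their values was not tested. Clec1b, a receptor of platelets, was called higher with loss than with gain, at 1.71 ± 0.30 (adjusted p = 0.0332). Its levels were low, at 2.18 to 3.42 in loss WT, 6.33 to 15.1 in KO, 2.17 to 2.65 in gain WT and 1.96 to 2.27 in TG. It was the only call of the difference among 5 tested platelet genes. F2rl3 had effects of 1.09 and -0.19, Pf4 0.21 and 0.00, and Itga2b -0.09 and -0.27. Globin genes took 0.238% to 0.744% of the signal in KO and 0.452% to 0.513% in TG, against 0.510% to 0.765% and 0.433% to 0.979% in their WT.

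**Figure D4:**
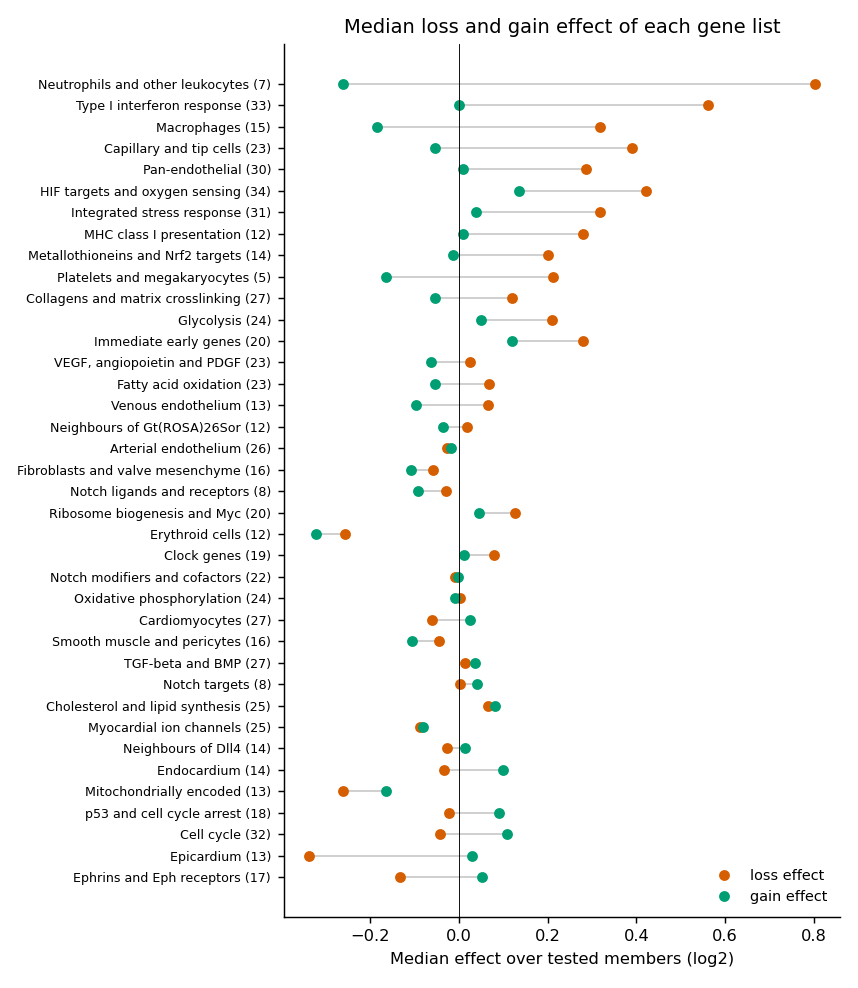
Median loss effect (orange) and gain effect (green) over the tested members of each gene list, with the number of members in brackets and log2 units on the x axis. The list of sex-linked genes is left out. Medians for leukocytes (0.80 and -0.26), macrophages (0.32 and -0.18) and capillary and tip cells (0.39 and -0.05) lie on opposite sides of 0, and HIF targets (0.42 and 0.14) on the same side.

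Promoters of the opposed genes were read for the core of the RBPJ motif, TGGGAA on either strand, in the 250 bases before the start site (RefSeq, GRCm38.p6). A promoter was given for 9 of the 16 genes, and 2 of these 9 (22.2%) held a match, against 24.1% of 27025 genes with a promoter in the table. Acsl1 and Ntm held the matches, which are shown because they are the only ones. All of these windows lie inside the annotated genes (Acsl1 46471037 to 46536051, Ntm 28994750 to 29963141), so before internal start sites. Which start sites are used in ventricles was not tested. Capitals mark the motif or, for Ntm, its reverse complement, and each window runs 5′ to 3′ on the strand of its gene. The windows of Acsl1 lie on the plus strand at chr8:46490736-46490791 and chr8:46490771-46490826 and overlap, and that of Ntm lies on the minus strand at chr9:29413561-29413616.
Acsl1, first match: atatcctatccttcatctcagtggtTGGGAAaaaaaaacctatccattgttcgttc
Acsl1, next match: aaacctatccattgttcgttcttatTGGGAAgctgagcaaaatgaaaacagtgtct
Ntm: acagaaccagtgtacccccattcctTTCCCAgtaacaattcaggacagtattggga
Among all genes with a called difference, 11 of the 28 with a promoter (39.3%) held a match, against 23.9% of the joined genes. These shares rest on few genes and are a description.

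The other 3 experiments of the series used their own WT libraries and were not part of the rule, so the opposed genes were read there too. At E12.5, whole hearts of Dll4flox;Nfatc1-Cre embryos (2 libraries against 4 WT) lacked Dll4 in the endocardium and its descendants. The authors had dropped other libraries of this genotype for their Dll4 levels and their clustering in principal component plots. Dll4 is therefore left out of the counts from this experiment. Choice by clustering can bear on any gene, so the counts of signs and calls from this experiment are a description. Of the 15 opposed genes besides Dll4, 13 had the sign of the E15.5 loss effect, as did 57.9% of all joined genes. Of these 15, 1 was called, while 2.17% of all genes were called in that experiment. This was Cdkn1c, at -0.53 ± 0.09 (adjusted p = 0.0349). Fabp4 was at 2.17 ± 0.66, Sparcl1 at 1.14 ± 0.29 and Aplnr at 0.89 ± 0.28, each with an adjusted p between 0.079 and 0.12. Xirp2 had the inverse sign, at -0.93 ± 0.21 (adjusted p = 0.062).

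Of the 43 genes with a called difference besides Dll4, 41 had the sign of the loss effect in Dll4flox;Nfatc1-Cre hearts and 8 were called. Kcne3 was at 1.74 ± 0.27 and Sgk1, a kinase induced by serum and glucocorticoids, at 0.80 ± 0.09 (adjusted p = 0.0245 and 0.00602). In Jag1flox;Nfatc1-Cre hearts at E12.5 (4 against 4 libraries), which lack another Notch ligand, 11 of the 15 had that sign, with 49.6% of all joined genes. There 1 of the 15 was called, where 1.75% of all genes were. This was Myom2, at 0.72 ± 0.15 (adjusted p = 0.039). Of the 42 measured genes with a called difference besides Dll4, 33 had that sign and 4 were called. In Efnb2flox;Nfatc1-Cre ventricles at E16.5 (4 against 4 libraries from individual embryos), 6 of the 15 (40.0%) had that sign, below the 55.8% of all joined genes. Of the 15, 0 were called by limma, with 3 at an unadjusted p under 0.05, where 0.0296% of all genes were called. Of the 42 measured genes with a called difference besides Dll4, 17 had that sign and 0 were called, with 6 at an unadjusted p under 0.05. Stage, tissue and Cre differ between these experiments, and the effects were not tested against each other.

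**Figure D5:**
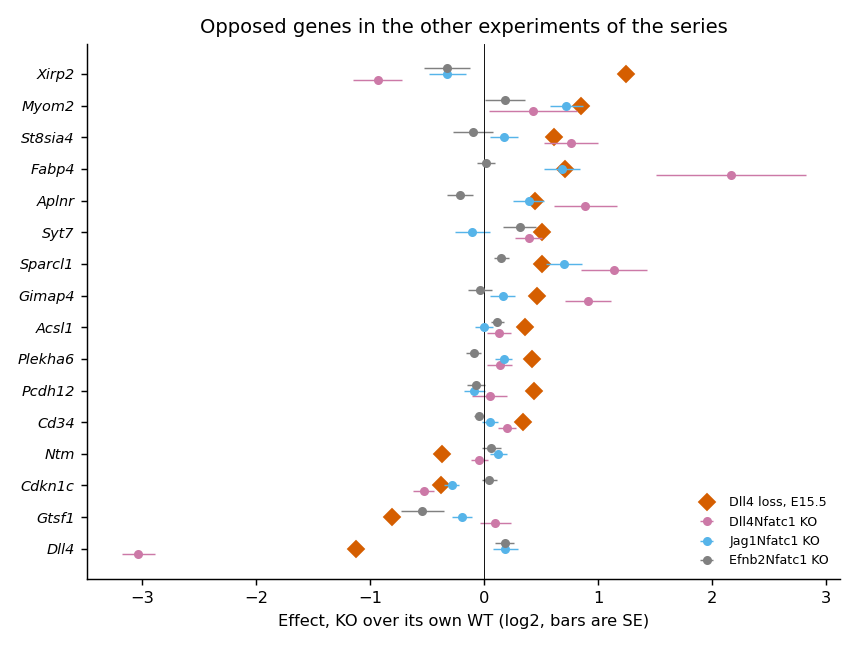
Effect of each opposed gene (log2, mutant over its own WT) in the E15.5 loss experiment (diamonds) and in the other 3 experiments of the series (circles, bars are SE). In Dll4flox;Nfatc1-Cre hearts 13 of the 15 genes besides Dll4 lie on the side of the diamond, and Xirp2 and Gtsf1 lie on the other side.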

How the data were processed

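Polyadenylated RNA of 14 libraries from E15.5 ventricles was used here. Per the labels and methods, the authors demultiplexed reads with CASAVA 1.8.2, checked them with FastQC, trimmed adapters with Cutadapt 1.6, discarded reads under 30 bases, estimated expected counts with RSEM (1.2.3 in the labels) on GRCm38 transcripts and normalised them with limma. The deposited signal is the rounded count plus 0.5 as CPM of an adjusted library size, for expressed genes, in a table for each experiment. Undoing the scaling gave whole counts within 0.001 in every library, from which totals were taken. Columns were matched to samples by title.

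From these values, log2(value + 0.5) was modelled in limma (3.58.1, R 4.3.3), letting the prior variance follow the mean. Each effect was fitted in its own table, and the difference in a joint fit of 4 group means over 13562 genes. On simulated counts for the same 13562 genes, 91% of genes opposed 1.5-fold and 78% of genes opposed 1.3-fold each way had a called difference, and 2.87% of calls were false. There, 100 genes above a minimum level were changed at each fold, equally in both tables, and no library deviated across genes as KO3 did. In the data gain effects were smaller than loss effects, so these shares do not carry over to the called genes.

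Named genes were Dll4, up to 15 opposed genes in each direction, all tested Notch ligands, receptors and targets, and up to 4 genes of each other list by p of the difference. The rule's members and the 39 lists were chosen with earlier results of these data known. Alternatives are given in the closing section. Libraries of the same number did not deviate together in every pair, so they were not treated as pairs. Gene symbols and coordinates came from GENCODE M21. How the counting treated strand is not given in the sources used here, so overlapping antisense genes are uncertain.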

Additional observations from a re-analysis of the deposited data

Results flagged for a closer look

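In 38 sets of 4 WT libraries (19 measures in each experiment: the 16 opposed genes, total counts, and the mitochondrial and globin shares), 1 library stood apart from the other 3. Myom2 was at 80.9 normalised counts in loss WT3 and at 100.7 to 104.5 in the other loss WT libraries. Chance marks about 1 in 20 such sets. All KO values of Myom2 (133 to 213) lay above all of these.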

How the results depend on the processing

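The count of called differences (44) became 134 with the spread estimated in each table, 1 without the mean-variance trend, 350 with library weights, 6 with libraries 2 to 4 only and 2 at an adjusted p under 0.01. The opposed count (16) became 45, 0, 109, 3 and 1 in the same order, and 30 with the Y-linked level as a covariate, an alternative added after seeing the data. The count of list members called (20) became 52, 0, 87, 4 and 1. The loss count (160) became 5 without the trend, 791 with library weights, 51 with libraries 2 to 4, 4 at an adjusted p under 0.01 and 64 with the Y-linked level. The gain count became 1 with libraries 2 to 4 and 1 with a replicate block. That block gave 37 called differences and 20 opposed genes, 9 of them among the 16. The difference of Dll4 lost its call at -1.41 without the trend, with robust variances and at an adjusted p under 0.01, at -1.38 with the block and with libraries 2 to 4, and at -1.40 with the Y-linked level.

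Leaving out each library gave 2 to 459 called differences, 1 to 126 opposed genes, 1 to 111 list members, 6 to 574 genes called with loss, 0 to 29 with gain, and -1.80 to -1.15 for Dll4, whose difference was called only without KO3. The cause was not tested. No named gene reversed while called, and the 16 opposed genes kept the sign of the difference in every fit that held them. Of 44 called genes, the sign of the difference flipped in 0 of 616 values from fits without a library and in 0 of 693 values from the other fits. These genes were chosen from the same libraries, so kept signs are largely built in and are a description. In all 30 alternative fits, 0 genes were called in both tables with the same sign, and the WT side was the larger for 2 opposed genes. Fits with 2 count models were not run, since most libraries hold too few low values to check the counts recovered from the deposited signal.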

Other observations

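Collagen VI genes, which encode microfibrils around cells and vessels, had the signs of the opposed genes that were higher with loss, though none had a called difference. Col6a3 was at 114 to 133 normalised counts in loss WT, 133 to 180.2 in KO, 161 to 200.2 in gain WT and 105 to 145 in TG, and its groups did not overlap in either table. Its effects were 0.33 ± 0.09 and -0.41 ± 0.11, and the difference of 0.74 had an adjusted p of 0.058 by limma. Col6a1 had effects of 0.23 and -0.16 (difference 0.40, adjusted p = 0.073) and Col6a2 of 0.24 and -0.11 (difference 0.35, adjusted p = 0.082). For all 27 genes of collagens and matrix crosslinking the medians were 0.12 and -0.05.

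Nrp2, a co-receptor for VEGF-C and semaphorins, also missed the threshold of the difference, with effects of 0.52 and -0.17 (difference 0.70, adjusted p = 0.054).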
